A study of Mus musculus with 12 samples.

Results

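The T cell lineage transcription factors are 7 genes of the 770-gene panel that encode proteins setting the identity of T cell subsets: Tbx21 (T-bet), Eomes, Runx3, Gata3, Foxp3, Bcl6 and Tcf7 (TCF-1). They were chosen by symbol, all 7 were on the panel, and none is among its 20 reference genes, so all 7 stood among the 750 genes tested. They were measured in 12 A20 tumors, which arise from a B-cell lymphoma line of Balb/c mice. All mice were female Balb/c, 7 to 8 weeks old per the study's methods, and carried a subcutaneous tumor from 5000000 A20 cells for about 7 days before treatment. Each tumor was then injected every other day for 3 injections in all, and was taken 2 h after the last one. The PBS group (n = 4) received the buffer alone. The GLA-SE group (n = 4), called G100 in the study, received 10 µg of GLA, a synthetic agonist of TLR4, in 50 µl of a 2% stable emulsion. The SE group (n = 4) received the emulsion without GLA, at a dose that the labels do not give separately. Each sample is a whole tumor, so T cells were mixed with lymphoma cells and other host cells.

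Each factor is known for a role in T cells. T-bet drives type 1 helper cells and the interferon-gamma gene. Eomes shares much of this role in cytotoxic and memory CD8 T cells and in NK cells, and Runx3 specifies the CD8 lineage. Gata3 drives type 2 helper cells, Foxp3 defines regulatory T cells, Bcl6 directs follicular helper cells, and TCF-1 maintains naive and memory T cells. Several have roles outside T cells: Bcl6 in germinal-centre B cells, Gata3 in epithelium, and T-bet and Eomes in NK cells. The counts of bulk tumors do not show which cells a transcript came from.

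The sequences before the transcription starts are shown for Tbx21, Foxp3 and Bcl6. In these 3 members the GLA-SE and PBS tumors did not overlap in counts scaled to the reference genes. The same held for 477 of the 750 genes (63.6%) with GLA-SE above and for 8 (1.07%) with GLA-SE below. They are the 250 bases before each RefSeq start (GRCm38.p6), 5′ to 3′ on the gene's strand, and both starts are given for Foxp3 and for Bcl6. Capitals mark matches on either strand to the STAT motif TTCNNNGAA or the GATA motif AGATAA. The RUNX motif TGTGGT was also searched and matched none of the 5 windows, and no STAT match overlapped a GATA match.
Tbx21, chr11:97115332-97115581, minus strand: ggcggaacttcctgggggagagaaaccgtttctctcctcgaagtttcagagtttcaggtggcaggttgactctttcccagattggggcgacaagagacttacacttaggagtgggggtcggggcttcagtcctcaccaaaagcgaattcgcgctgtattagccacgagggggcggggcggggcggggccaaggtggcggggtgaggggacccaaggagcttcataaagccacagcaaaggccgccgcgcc
Foxp3, chrX:7579426-7579675, plus strand: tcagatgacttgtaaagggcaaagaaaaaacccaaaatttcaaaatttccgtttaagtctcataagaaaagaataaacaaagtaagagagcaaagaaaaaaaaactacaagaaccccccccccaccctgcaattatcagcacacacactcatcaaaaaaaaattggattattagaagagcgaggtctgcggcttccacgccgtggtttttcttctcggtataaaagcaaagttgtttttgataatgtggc
Foxp3, chrX:7580233-7580482, plus strand: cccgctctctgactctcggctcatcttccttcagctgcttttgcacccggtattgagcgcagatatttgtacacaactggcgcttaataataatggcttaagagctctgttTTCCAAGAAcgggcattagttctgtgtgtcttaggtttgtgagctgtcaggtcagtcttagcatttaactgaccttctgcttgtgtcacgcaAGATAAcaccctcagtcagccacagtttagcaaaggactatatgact
Bcl6, chr16:23988853-23989102, minus strand: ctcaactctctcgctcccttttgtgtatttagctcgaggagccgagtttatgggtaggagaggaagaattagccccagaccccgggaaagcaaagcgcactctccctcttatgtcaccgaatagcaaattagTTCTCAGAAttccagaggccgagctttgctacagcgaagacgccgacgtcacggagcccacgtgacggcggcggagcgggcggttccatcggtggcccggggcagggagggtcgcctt
Bcl6, chr16:23981284-23981533, minus strand: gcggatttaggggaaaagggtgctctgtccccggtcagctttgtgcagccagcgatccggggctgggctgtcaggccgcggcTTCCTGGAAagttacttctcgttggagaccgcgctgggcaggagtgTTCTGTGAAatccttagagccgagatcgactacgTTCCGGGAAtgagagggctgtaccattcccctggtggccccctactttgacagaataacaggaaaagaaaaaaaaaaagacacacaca
The STAT motif was matched 1 time before one Bcl6 start and 3 times before the other, and 1 time before the second Foxp3 start, which also held 1 GATA match. Of 32851 promoter windows of this length, 7.02% held the STAT motif, 0.0274% held it at least 3 times, 14.0% held the RUNX motif and 9.99% held the GATA motif. A match is a description of the letters and was not tested as a binding site.

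Counts are numbers of probes counted for a gene and depend on the probe, so no level is compared between genes. The totals were 810260 to 1612415 counts a tumor, and the members had 21 to 2227 counts in each tumor. Tbx21, Foxp3, Runx3 and Gata3 lay near the methods' threshold count of 20 in some tumors, which limits their precision. Scaled counts are the deposited counts after each tumor was set to the geometric mean of 17 reference genes, which was 2184 to 2818 counts in PBS tumors, 1894 to 2135 in GLA-SE tumors and 1011 to 3077 in SE tumors. The lowest, 1011, was that of SE replicate 4, whose deposited counts were divided by 0.491, so its scaled counts exceed its deposited counts. The markers of T cells were present in all 12 tumors. SE replicates 3 and 4 stood apart from the other tumors. The sum of the scaled counts of Epcam, Cdh1 and Muc1, epithelial genes picked after their values were seen, was 1950 and 6624 in them and 197.8 to 529.5 in the other 10. Muc1 was high in SE replicate 4 only (840.7), while its 106.2 in SE replicate 3 lay below all GLA-SE tumors (116.6 to 163.0). Fits and ratios without both were added after their values were seen.

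**Figure D1:**
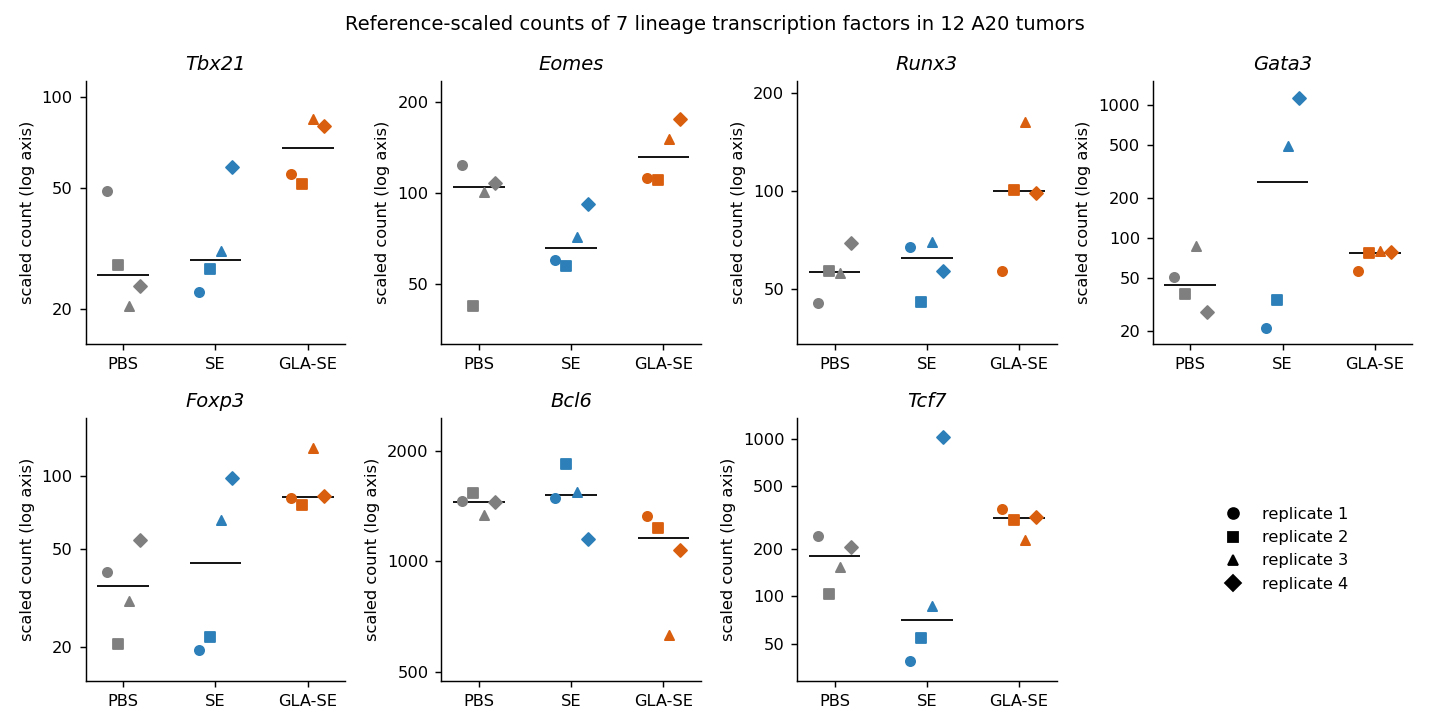
Scaled counts (log axis) of the 7 members in each tumor, by group, where symbols give the replicate number and bars the group median of 4 tumors. For Tbx21 and Foxp3 all 4 GLA-SE tumors lay above all 4 PBS tumors, for Bcl6 below them, and Gata3 was highest in SE replicates 3 and 4 (493.4 and 1130).

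Of the 7 members, 4 rose in GLA-SE tumors against PBS tumors (edgeR's quasi-likelihood test, Benjamini-Hochberg adjusted p under 0.05). They were Foxp3, Tbx21, Runx3 and Tcf7, at 1.72 to 2.50 times the PBS level. Over the panel, 512 of 750 genes (68.3%) were called higher and 3 (0.4%) lower, with a median log2 fold change of 0.89. The median of the 7 members was 0.78, so their count of 4 is a share below that of the panel. Under other scalings the panel's split changed to 61 higher and 307 lower (panel median), 148 and 168 (TMM), 22 and 3 (CD3 genes), 190 and 152 (DESeq2) and 351 and 17 (deposited counts). All directions that follow are therefore relative to the reference genes, and in a bulk tumor fewer cells of a type and less RNA per cell cannot be told apart.

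Tbx21, the type 1 factor, had scaled counts of 55.9, 51.9, 84.8 and 80.3 in GLA-SE replicates 1 to 4. They were 49.0, 28.1, 20.5 and 23.8 in the PBS tumors and 22.7, 27.1, 31.2 and 59.0 in the SE tumors. In scaled counts every GLA-SE tumor was above every PBS tumor, while SE replicate 4 reached into the GLA-SE range. Both depended on the scaling. In deposited counts SE replicate 4 had 29, against 50 to 79 in GLA-SE tumors. PBS replicate 1 had 52 deposited counts, above the 50 of GLA-SE replicate 2. Against PBS, Tbx21 was 2.26 times as high (log2 fold change 1.17, standard error 0.32, edgeR adjusted p = 0.0108). For single genes the groups did not overlap with GLA-SE above in 477 of the 750 genes (63.6%) and below in 8 (1.07%). The log2 fold change stayed at 1.02 or more when any one tumor was left out, and its call held in each case. It was 0.29 under TMM scaling and −0.08 under panel median scaling, both without a call.

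Eomes, the related factor of cytotoxic and NK cells, was measured at 111.8, 110.1, 151.1 and 175.9 scaled counts in GLA-SE tumors. The PBS tumors had 123.4, 42.1, 100.8 and 108.0 and the SE tumors 60.2, 57.3, 71.2 and 91.6. The GLA-SE tumors overlapped with the PBS tumors but all lay above the SE tumors. The log2 fold change against PBS was 0.55 (standard error 0.33, edgeR adjusted p = 0.170), and it was negative under CD3, TMM, DESeq2 and panel median scaling, with no call under any.

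Runx3, the factor of the CD8 lineage, had 56.9, 100.7, 163.0 and 98.6 scaled counts in GLA-SE tumors against 45.2, 57.0, 56.2 and 69.1 in PBS tumors. The SE tumors lay at 67.5, 45.8, 69.95 and 57.0, close to the PBS tumors. All GLA-SE tumors but replicate 1 were above all PBS tumors. Runx3 rose 1.84-fold (log2 fold change 0.88, standard error 0.32, edgeR adjusted p = 0.0339). The call was lost without PBS replicate 1, 2 or 3 or GLA-SE replicate 2, 3 or 4, with log2 fold changes of 0.58 to 0.91 and adjusted p of 0.0532 to 0.0808, and the direction turned under CD3, TMM, DESeq2 and panel median scaling.

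Foxp3, the factor of regulatory T cells, showed the largest log2 fold change of the 7 members in this comparison. The GLA-SE tumors had 81.0, 75.8, 129.3 and 82.4 scaled counts, the PBS tumors 40.5, 20.6, 30.7 and 54.8, and the SE tumors 19.4, 21.9, 66.2 and 97.7. All GLA-SE tumors were above all PBS tumors, and SE replicates 3 and 4 were above both other SE tumors. Foxp3 rose 2.50-fold against PBS (log2 fold change 1.32, standard error 0.33, edgeR adjusted p = 0.0073). The call held without any one tumor, with log2 fold changes of 1.12 to 1.59. The value was 0.42 under TMM and 0.05 under panel median scaling, without a call.

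Tcf7, the factor of naive and memory T cells, had 357.5, 306.3, 229.3 and 321.3 scaled counts in GLA-SE tumors and 242.1, 103.8, 154.1 and 204.9 in PBS tumors. All GLA-SE tumors but replicate 3 were above all PBS tumors, and that one lay just below PBS replicate 1. Tcf7 rose 1.72-fold (log2 fold change 0.78, standard error 0.27, edgeR adjusted p = 0.0294). The call was lost without PBS replicate 2 or 3 or GLA-SE replicate 1, 2 or 4, with log2 fold changes of 0.60 to 0.78 and adjusted p of 0.0505 to 0.0761, and the direction turned under CD3, TMM, DESeq2 and panel median scaling.

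Gata3, the type 2 factor, was measured at 56.9, 77.9, 80.4 and 78.3 scaled counts in GLA-SE tumors and at 50.9, 38.3, 87.6 and 27.8 in PBS tumors. The groups overlapped through PBS replicate 3, which had the highest value of the 8. The log2 fold change was 0.51 (standard error 0.35, edgeR adjusted p = 0.206). Without PBS replicate 3 it was 0.91 with an adjusted p of 0.0231, and it was negative under CD3, TMM, DESeq2 and panel median scaling.

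Bcl6, the follicular helper and germinal-centre factor, was the one member with a lower mean in GLA-SE than in PBS tumors. Its scaled counts were 1325, 1233, 629.2 and 1073 in GLA-SE tumors and 1457, 1538, 1339 and 1446 in PBS tumors. All GLA-SE tumors lay below all PBS tumors, though GLA-SE replicate 1 was close to the lowest of them. The fit gave a log2 fold change of −0.44 (standard error 0.21, edgeR adjusted p = 0.0897), which did not pass the threshold, and the exact permutation test gave the smallest p it can (0.0286). The direction was the same under the other scalings, and Bcl6 passed the threshold as lower under CD3 (−1.58), TMM (−1.31), DESeq2 (−1.24) and panel median scaling (−1.68) and with deposited counts (−0.71). It also passed without GLA-SE replicate 1 (−0.56, adjusted p = 0.0488) or without GLA-SE replicate 3 (−0.26, adjusted p = 0.0462).

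**Figure D2:**
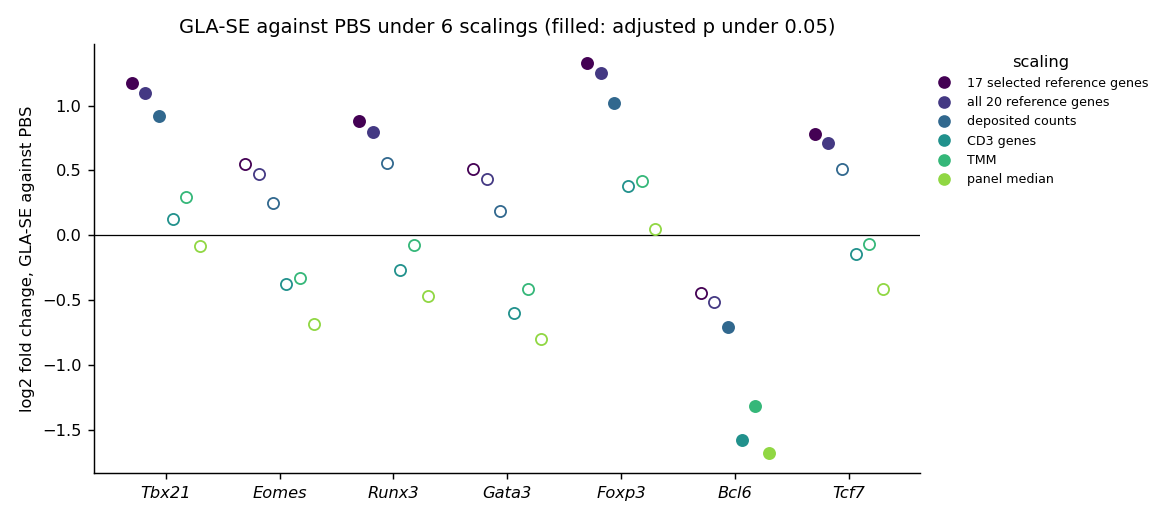
Log2 fold change of each member in GLA-SE against PBS tumors (4 a group) under 6 scalings, with filled circles for an adjusted p under 0.05. Tbx21 and Foxp3 were called under the 3 scalings to reference genes or deposited counts, whereas Bcl6 lay below 0 under all 6.

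The emulsion alone gave no call. In SE tumors against PBS tumors, 0 of the 7 members passed the threshold with edgeR, and 1 (Gata3) had an unadjusted p under 0.05. The counts with limma and with DESeq2 were also 0. Over the panel 0 of 750 genes (0.0%) were called higher or lower, with 140 at an unadjusted p under 0.05. The SE tumors lay above all PBS tumors in 65 genes (8.67%) and below them in 8 (1.07%), and none of these was a member. Both comparisons with PBS use the same 4 PBS tumors. The log2 fold changes against PBS, for GLA-SE and then SE, were 1.17 and 0.19 for Tbx21. They were 0.88 and 0.08 for Runx3, and 1.32 and 0.46 for Foxp3. For Eomes they were 0.55 and −0.42. They were −0.44 and 0.06 for Bcl6. The 95% intervals of SE against PBS reached from −0.30 to 0.42 for Bcl6 and from −1.62 to 3.14 for Tcf7, so changes of Tcf7 of several fold in either direction were not detectable.

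**Figure D3:**
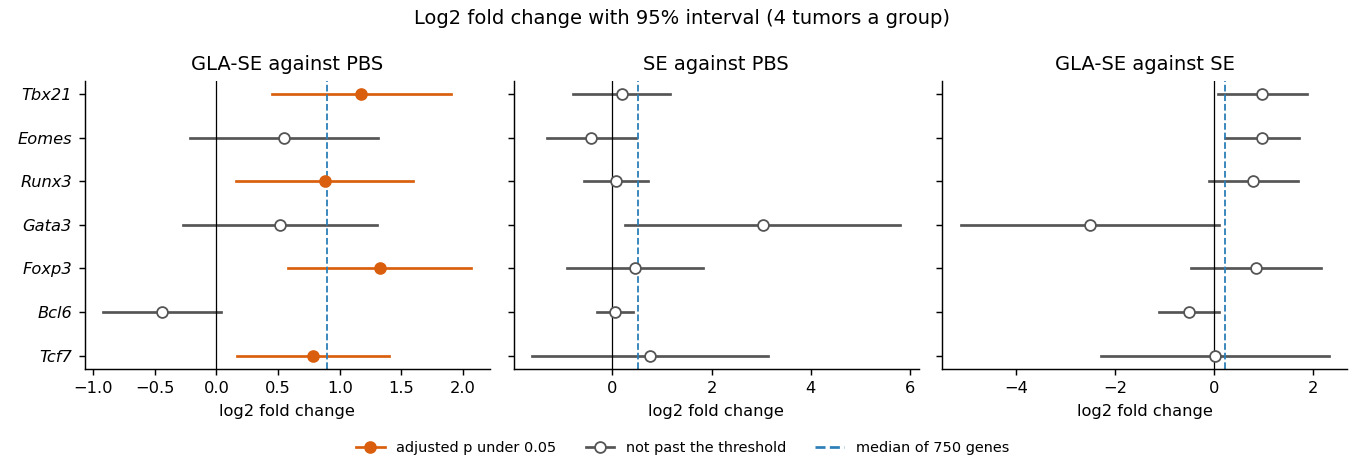
Log2 fold changes (edgeR, 95% intervals) of the 7 members in the 3 comparisons of 4 against 4 tumors, with the median of the 750 genes as a dashed line. The intervals were widest for Gata3 and Tcf7 in the comparisons with SE tumors.

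Gata3 and Tcf7 varied most among the SE tumors. Gata3 had scaled counts of 21.4, 34.4, 493.4 and 1130 in SE replicates 1 to 4. The first pair lay within or below the range of the PBS tumors, and SE replicates 3 and 4 were above every other tumor. The log2 fold change against PBS was 3.03 (standard error 1.20, edgeR adjusted p = 0.243). Without SE replicates 3 and 4, an analysis added after their values were seen, it was −0.90 (adjusted p = 0.312).

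The same tumors were high in epithelial and stromal genes. Epcam, an adhesion protein of epithelium, had 1137 and 4379 scaled counts in SE replicates 3 and 4 and at most 323.3 elsewhere. Cdh1 (E-cadherin) had 707 and 1405 against at most 130.7 in the other 10 tumors, where PBS replicate 3 was highest, as it was for Gata3. Col3a1, a fibrillar collagen, had 18340 and 91070 against at most 15690. The summed 4 markers of endothelium and fibroblasts were 27440 and 118400 in them, 3234 and 4106 in the other SE tumors, 3771 to 8782 in PBS tumors and 17580 to 25490 in GLA-SE tumors. The part of these tissues in the Gata3 counts was not tested. The 3 genes whose log2 scaled counts followed Gata3 most closely over the 12 tumors, among 673 genes with a mean of at least 20, were Erbb2 (r = 0.96), Itgb4 (r = 0.96) and Il34 (r = 0.96). These r values, like those given later for other members, are descriptions over tumors whose genes share 1 scaling factor each. Without SE replicates 3 and 4 the values for Gata3 were 0.75, 0.75 and 0.80 over 10 tumors.

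**Figure D4:**
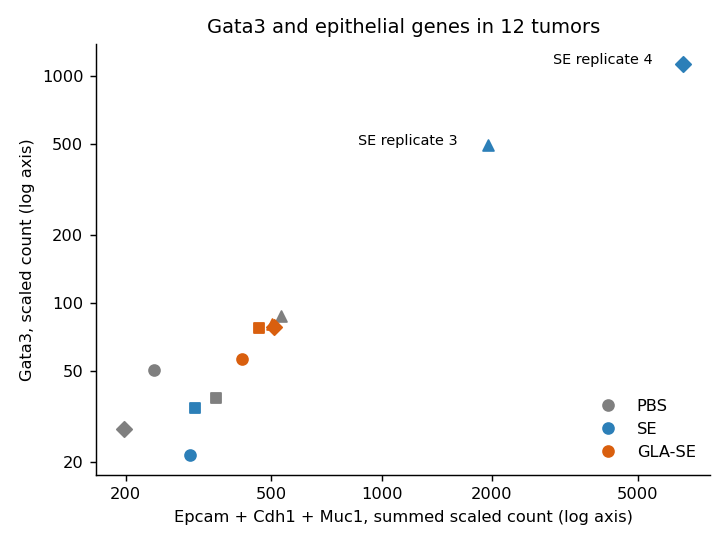
Scaled counts of Gata3 against the sum of Epcam, Cdh1 and Muc1 in each of the 12 tumors (both axes log), colored by group, with the same symbols for replicates as in the plot of the members. SE replicates 3 and 4 had the highest values of both measures.

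The type 2 cytokines had low counts in all 12 tumors. Il4 was 9.36, 14.6, 23.7 and 52.9 scaled counts in SE replicates 1 to 4, against at most 15.9 in PBS and 40.5 in GLA-SE tumors. Il5 was 17.5 and 24.4 in SE replicates 3 and 4, above all other tumors (at most 11.4). Il13 was at most 28.5 in SE tumors and 30.4 in GLA-SE tumors. Deposited counts of Il4 reached 26 in SE and 39 in GLA-SE tumors, and those of Il5 reached 14 and 11. Of the 9 genes of the type 2 list (cytokines, receptors and chemokine receptors of type 2 cells), 7 had under 20 deposited counts in most tumors, so they were near the lower limit of the measurement. The summed scaled count of the list was 1185 and 2207 in SE replicates 3 and 4, 979.1 to 2022 in GLA-SE tumors and 497.3 to 632.1 in PBS tumors. The part of type 2 cells in the Gata3 counts was not tested. In GLA-SE against PBS, 2 of the 9 rose, Il1rl1 (log2 fold change 2.01), the IL-33 receptor, and Il4ra (1.30). Under panel median scaling 0 were called higher and 3 lower.

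Tcf7 reached 1024 scaled counts in SE replicate 4, against 38.8, 54.2 and 87.4 in SE replicates 1 to 3 and 357.5 at most elsewhere. The 3 lower SE tumors lay below all PBS tumors. The log2 fold change of SE against PBS was 0.76 with all tumors (edgeR adjusted p = 0.627) and −1.56 without SE replicate 4 (adjusted p = 0.206). In that tumor the scaled counts of Cd3d, Cd3e, Cd3g and Cd4 were also the highest of the 12. Those of Cd8a and Cd8b1 (262.6 and 181.2) were below GLA-SE replicate 4 (305.0 and 184.0). The deposited counts of Cd3d, Cd3e, Cd3g and Cd4 there were 594, 585, 508 and 340. They were below those of GLA-SE replicate 1 (741, 734, 700 and 389). Cd3e, a subunit of the T cell receptor complex, had 1191 scaled counts there and 146.4 to 283.5 in the other SE tumors. The summed T cell markers were 11550 in SE replicate 4, 1527 to 3389 in the other SE tumors, 1824 to 4449 in PBS tumors and 5312 to 6857 in GLA-SE tumors. Genes close to Tcf7 over the 12 tumors included Cd247 (r = 0.96) and Lck (r = 0.96), which encode parts of T cell receptor signaling.

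GLA-SE tumors were then compared with SE tumors, which carried the same carrier without GLA. None of the 7 members passed the threshold with edgeR, and 2 (Eomes and Tbx21) had an unadjusted p under 0.05. The count was 0 with limma and 1 with DESeq2 (Gata3, lower). Of the 750 genes, 16 (2.13%) were called higher and 0 (0.0%) lower, with 133 at an unadjusted p under 0.05. GLA-SE tumors lay above all SE tumors in 108 genes (14.4%), Eomes among them, and below them in 2 (0.267%), neither a member.

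Eomes had a log2 fold change of 0.97 against SE (standard error 0.33, edgeR adjusted p = 0.167) and an exact permutation p of 0.0286. Tbx21 had 0.98 (standard error 0.39, edgeR adjusted p = 0.239), Runx3 0.80, Foxp3 0.86, Tcf7 0.02, Bcl6 −0.50 and Gata3 −2.51. Without SE replicates 3 and 4, which leaves 2 SE tumors, 5 of the 7 members passed the threshold as higher in GLA-SE, as did 405 of the 750 genes (54.0%). These members were Tcf7 (2.71, adjusted p = 0.00175), Foxp3 (2.16, adjusted p = 0.00354), Tbx21 (1.45, adjusted p = 0.0113), Gata3 (1.40, adjusted p = 0.0113) and Eomes (1.22, adjusted p = 0.0153). Without SE replicate 4 alone 3 did, Tbx21 (1.34), Eomes (1.13) and Tcf7 (2.34), beside 101 of the 750 genes (13.5%). The direction of Gata3 in this comparison thus turned with the SE tumors that entered it.

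The CD3 genes, whose proteins form the T cell receptor complex, rose in the same comparison as 4 of the members. In GLA-SE against PBS, Cd3d rose by 0.94, Cd3e by 0.81 and Cd3g by 0.92 on the log2 scale (edgeR adjusted p of 0.0304, 0.0398 and 0.0337). Cd4 rose by 0.78 (adjusted p = 0.0180), and Cd8a (0.85, adjusted p = 0.0681) and Cd8b1 (0.86, adjusted p = 0.0601) did not pass. Of the 14 T cell markers 9 rose, with a median of 0.82, and under panel median scaling 0 were called higher and 1 lower. Of the 5 NK cell markers 3 rose (Ncr1 1.65, Klrc1 1.43 and Klrd1 1.32), while panel median scaling called 0 higher and 1 lower. The summed NK cell markers were 1167 to 1351 in GLA-SE tumors and 243.1 to 844 in PBS tumors. The part of T and NK cell content in the changes of the members was not tested beyond the ratios that follow.

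Ratios of genes within a tumor do not depend on the scaling. For 13 ratios in 3 comparisons the log2 ratio of deposited counts was compared by a two-sided exact permutation test. None of the 39 tests passed after Benjamini-Hochberg adjustment, where the smallest adjusted p was 0.186. The smallest exact p that 4 against 4 tumors allow is 0.0286. An adjusted p under 0.05 would thus have required most of the 39 tests to reach it, so the adjusted result cannot show that the ratios were equal. Relative to the geometric mean of the CD3 genes, Tbx21 differed by 0.19 between GLA-SE and PBS tumors (exact p = 0.600), Foxp3 by 0.36 (exact p = 0.171), Tcf7 by −0.17 (exact p = 0.543) and Runx3 by −0.21 (exact p = 0.714). Eomes differed by −0.38 (exact p = 0.0857) and Gata3 by −0.38 (exact p = 0.486). The SDs of these ratios over 4 tumors were 0.20 to 1.05 in PBS and 0.22 to 0.60 in GLA-SE. For Tbx21, Tcf7 and Runx3 the difference was below both SDs of its ratio, and for Gata3 below that in PBS. For Eomes (SD 0.25 in PBS and 0.24 in GLA-SE) and Foxp3 (0.31 and 0.27) it was larger than both, though the groups overlapped.

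With all tumors, the balance between the factors differed between GLA-SE and PBS tumors by less than its SD in the PBS tumors. The log2 ratio of Tbx21 to Gata3 was −0.12 ± 0.31 (SD, n = 4) in GLA-SE and −0.69 ± 0.93 (SD, n = 4) in PBS tumors. Tbx21 to Foxp3 was −0.43 ± 0.26 (SD, n = 4) and −0.26 ± 0.75 (SD, n = 4). Tbx21 to Eomes differed by 0.57 and Tcf7 to Tbx21 by −0.37. The exact p values of the 4 differences were 0.286, 0.743, 0.286 and 0.371. The Tbx21 to Eomes ratio differed by 0.91 without PBS replicate 2 (exact p = 0.0286), and Foxp3 to Gata3 differed by 0.73 with all tumors (exact p = 0.257) and by 1.20 without PBS replicate 4 (exact p = 0.0286). In GLA-SE against SE tumors, Foxp3 to Gata3 was higher by 2.09 and Gata3 to CD3 lower by 2.11 (exact p = 0.0286 for each, adjusted p = 0.186), with the Gata3 counts of SE replicates 3 and 4 in both. Without these 2 tumors the differences were 0.69 and −0.61 (exact p of 0.133 and 0.0667, where 0.0667 is the smallest that 4 against 2 tumors allow).

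Bcl6 was also set against B cell markers, since the lymphoma cells are B cells, in ratios added after the values were seen. Relative to the geometric mean of the 8 markers, the log2 ratio differed by −0.45 between GLA-SE and PBS tumors, by 0.12 between SE and PBS tumors and by −0.57 between GLA-SE and SE tumors (exact p of 0.0286, 0.257 and 0.0286). This depended on the marker. With Ms4a1 (CD20) the differences were −0.04, 0.25 and −0.29 (exact p of 0.943, 0.114 and 0.257). With Pax5, a B-cell identity factor, they were −0.22, 0.08 and −0.30 (exact p of 0.0571, 0.229 and 0.0571). Among the B cell markers Ms4a1 fell by 0.45 and Cd79b by 0.41 on the log2 scale in GLA-SE against PBS (edgeR adjusted p of 0.00758 and 0.00597), as large as the difference of Bcl6. The summed B cell markers were 14970 to 17320 in GLA-SE tumors and 18430 to 21740 in PBS tumors. Relative to the CD3 genes, the log2 ratio of Bcl6 was 0.59 ± 0.62 in GLA-SE tumors and 2.09 ± 0.76 in PBS tumors (SD, n = 4; exact p = 0.0286, adjusted p = 0.186), and all GLA-SE tumors, at −0.27 to 1.14, lay below all PBS tumors, at 1.43 to 3.14. With group medians, or without GLA-SE replicate 3, GLA-SE replicate 4 or PBS replicate 2, the exact p was 0.0571. SE tumors ranged from 0.01 to 3.32 and overlapped both groups. The gene closest to Bcl6 over the 12 tumors was Pax5 (r = 0.92), followed by Icam2 (r = 0.82) and Ccnd3 (r = 0.78).

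**Figure D5:**
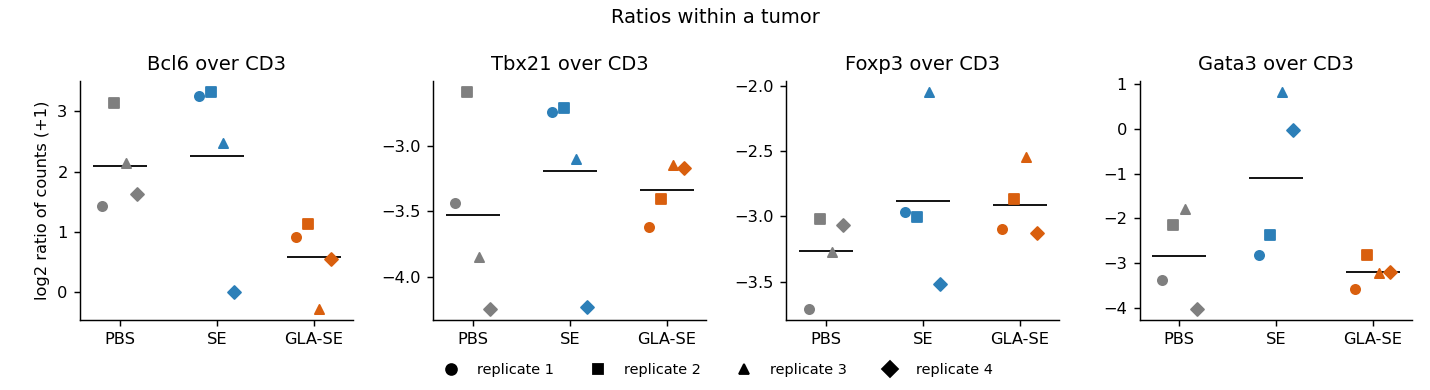
Log2 ratios of deposited counts (plus 1) within each tumor, for Bcl6, Tbx21, Foxp3 and Gata3 over the geometric mean of Cd3d, Cd3e and Cd3g, with bars for the mean of 4 tumors. GLA-SE tumors lay below PBS tumors for Bcl6, and the 2 groups overlapped for Tbx21, Foxp3 and Gata3.

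Genes linked to each lineage were counted by lists. All counts are relative to the reference genes, and panel median scaling removed most of them, as given beside each. The type 1 list (interferon-gamma, receptors for IL-12 and IL-18, type 1 chemokine receptors) had 8 of 9 genes higher in GLA-SE against PBS, with a median of 1.22. Il12rb2, a receptor chain of type 1 cells, had 2.20 and Il12rb1 had 1.62, and panel median scaling called 1 higher and 1 lower. Ifng itself rose by 1.33 (edgeR adjusted p = 0.00595), from 12.2 to 27.3 scaled counts in PBS tumors to 38.6 to 78.2 in GLA-SE tumors. Its groups did not overlap, and the SE tumors lay at 20.8 to 30.0.

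The cytotoxic list had 5 of 9 genes higher, with a median of 1.21, and panel median scaling called 3 higher and 2 lower. Gzma had 3.12, Gzmb 2.66 and Prf1 2.06, the granzymes and the pore protein of killer cells. Gzmb and Prf1 were also higher than in SE tumors (2.77 and 2.21, edgeR adjusted p of 0.00773 and 0.0129). They were 2 of the 16 panel genes called in that comparison. Gzmk, another granzyme, followed Eomes most closely over the 12 tumors (r = 0.97), and then Sh2d1a (r = 0.92) and Lag3 (r = 0.87). Tbx21 was followed by Stat4 (r = 0.93), the transducer of IL-12 signals, Klrg1 (r = 0.93) and Ifi35 (r = 0.92).

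The regulatory list (receptors and surface enzymes of regulatory T cells, and Il10) had 9 of 10 genes higher, with a median of 1.28, and panel median scaling called 1 higher and 1 lower. Il2ra (CD25), the high-affinity IL-2 receptor chain, rose by 2.26 (edgeR adjusted p = 0.000674), from 87.0 to 195.0 scaled counts in PBS tumors to 434.6 to 1005 in GLA-SE tumors. Ctla4 rose by 1.69 and Il10 by 1.55. In SE tumors Il2ra was 85.4 to 299.2, below all GLA-SE tumors, and the fit gave an adjusted p of 0.0632 for that difference. Foxp3 was most like Il15ra, Il2rb and Il18r1 (r = 0.96 for each). Runx3 was most like Il10 (r = 0.94), Cd80 (r = 0.92) and Ptgs2 (r = 0.91), genes that myeloid cells also express.

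The follicular helper list had 6 of 8 genes higher, with a median of 0.71, and panel median scaling called 0 higher and 4 lower. Icos rose by 1.79, Pdcd1 (PD-1) by 1.29 and Cxcr5 by 0.85, and Il21 by 0.67 (edgeR adjusted p = 0.0256). Cxcr5, which B cells also carry, was 955 to 2407 scaled counts in GLA-SE tumors and 743.4 to 866.5 in PBS tumors. Bcl6 differed in the other direction in the same tumors. The naive and memory list had 5 of 6 genes higher, with a median of 1.39, and panel median scaling called 1 higher and 1 lower. Ccr7 rose by 2.75, Bcl2 by 1.59 and Il7r by 1.35.

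The type 17 list had 3 of 5 genes higher, and panel median scaling called 1 higher and 0 lower. Its leading gene was Ccr6 (2.07), then Il23r (1.05) and Il17f (0.69), while Il17a had 0.56 (edgeR adjusted p = 0.257). Of its 5 genes, 4 had under 20 deposited counts in most tumors. Among 22 other transcription factors of T cells 19 rose, with a median of 0.93, and panel median scaling called 1 higher and 9 lower. Prdm1 (Blimp-1), an antagonist of Bcl6 in B and T cells, had the largest change (2.01), and Irf4 rose by 1.71. In SE against PBS none of the genes in these 8 lists was called by edgeR, and DESeq2 called 1 cytotoxic gene lower and 1 regulatory gene higher.

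Markers of other cells moved with GLA-SE as well. The 7 markers of monocytes and macrophages all rose, with a median of 1.62, and their summed scaled count was 80870 to 120000 in GLA-SE, 28560 to 36280 in PBS and 23780 to 103700 in SE tumors. The 3 neutrophil markers rose with a median of 3.20, and their sum was 766.1 to 8806, 162.8 to 177.5 and 125.0 to 1052. The 4 markers of endothelium and fibroblasts rose, with a median of 1.38. Of the 3 dendritic cell markers Itgax rose (0.91), and of the epithelial genes Muc1 did (0.68). Panel median scaling called 2 macrophage and 2 neutrophil markers higher and none of the endothelium and fibroblast list. The part of these cells in the members' counts was not tested.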

How the data were processed

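RNA of 12 A20 tumors was measured by nCounter with the mouse PanCancer Immune panel, which counts barcoded probes. The authors deposited whole-number counts of 770 genes. The methods name normalization in nSolver, but totals and reference genes differ between tumors, so the counts were treated as not normalized. Groups came from the sample titles. No tumor or column was left out.

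The geNorm procedure, run over all 12 tumors, kept 17 of 20 reference genes. Groups were compared on the counts with edgeR 4.0.16 (R 4.3.3), with these scalings as library sizes, without a filter or covariates, over the 8 tumors of a comparison. Adjustment (Benjamini-Hochberg) was over 750 genes with a threshold of 0.05. Two-sided exact permutation tests used the 70 assignments of 4 against 4, whose smallest p is 0.0286, and log2(count + 1) for ratios. Each sample is 1 mouse per the labels.

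The 3 comparisons were also run on simulated counts with known changes in 200 of 750 genes. Recovery was 83.5% of these changes for GLA-SE and PBS tumors, 51.0% for SE and PBS tumors, and 36.5% for GLA-SE and SE tumors. Among 4-fold changes it was 99%, 82% and 66% in that order. A missing call in a comparison that includes SE tumors is therefore weak evidence of no change. Members and lists were chosen with earlier results of these data known. Named are the members, the CD3, CD4 and CD8 genes, fixed lineage products, up to 3 called genes a list with the largest change, and the 3 genes of highest r to each member. Epcam, Cdh1, Muc1, Col3a1 and the B-cell denominators of Bcl6 were chosen after their values were seen. Alternatives were a filter of 20 counts, all reference genes, reference genes selected per comparison, panel median, TMM, CD3 and no scaling, 1 fit of all 12 tumors, a replicate block, DESeq2 1.42.0, limma 3.58.1 with a pseudocount of 1, and leaving out each tumor. Figures were drawn with matplotlib 3.10.9. Promoter sequences are RefSeq's (GRCm38.p6). A few results on genes that these rules pick are not reported here.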

Additional observations from a re-analysis of the deposited data

Results flagged for a closer look

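In 21 sets (7 members in 3 groups of 4 tumors), 3 tumors lay farther from the rest of their group than the 95% critical value of Dixon's test allows, where chance gives about 1 in 20 sets. Tcf7 was 1024 scaled counts in SE replicate 4 and 38.8 to 87.4 in the other SE tumors. Foxp3 was 129.3 scaled counts in GLA-SE replicate 3 and 75.8 to 82.4 in the other GLA-SE tumors. Gata3 was 56.9 scaled counts in GLA-SE replicate 1 and 77.9 to 80.4 in the other GLA-SE tumors.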

How the results depend on the processing

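In GLA-SE against PBS, where 4 members were called, the count was 4 with all reference genes, with reference genes selected per comparison, with the filter and with limma. It was 1 (Bcl6, lower) with panel median, TMM and CD3 scaling and with DESeq2, 1 (Tbx21, higher) with all 12 tumors in 1 fit, and 3 without rescaling (Tbx21 and Foxp3 higher, Bcl6 lower). The log2 fold changes of called members turned to −0.081 (Tbx21), −0.47 (Runx3) and −0.42 (Tcf7) with the panel median, to −0.075 (Runx3) and −0.064 (Tcf7) with TMM, to −0.27 and −0.14 with CD3 scaling, and to −0.015 and −0.0024 with DESeq2. The median log2 fold change of the panel was −0.40 with the panel median, −0.01 with TMM, −0.17 with CD3 scaling, 0.05 with DESeq2 and 0.61 without rescaling, against 0.89. Leaving out 1 tumor gave 2 to 4 called members in GLA-SE against PBS, 0 in SE against PBS and 0 to 3 in GLA-SE against SE. In SE against PBS the count was 0 under every alternative. In GLA-SE against SE it was 1 without rescaling (Tbx21, higher), 1 with CD3 scaling and 1 with DESeq2 (Gata3, lower), and 5 without both SE tumors 3 and 4, where Gata3 turned to 1.40. The cause of these changes was not tested.

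With the replicate number as a block, 3 members (Tbx21, Foxp3 and Tcf7) were called in GLA-SE against PBS, with Runx3 at an adjusted p of 0.0506, and 0 in the comparisons with SE. Same-numbered tumors correlated at −0.25 to 0.19 in their deviations from the group means. Differently numbered tumors were not correlated beside them, so these values cannot show whether the tumors were paired.

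Without a call under either setting, the sign of a member fold change differed from the reported one in 8 of 133 recomputed values for GLA-SE against PBS, 33 of 140 for SE against PBS and 10 of 140 for GLA-SE against SE. For ratios it was 6 of 133, 15 of 146 and 14 of 146. Low counts and 4 tumors a group limit the precision.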
